A study of Canis lupus familiaris with 20 samples.

Results

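Cells of the dog osteosarcoma line OS-2 were compared with cells of OS-1, OSCA-78 and OSCA-8 over all genes. The comparison used the 2 cell libraries labelled OS-2 and the 6 cell libraries of the other 3 lines, out of 20 samples in the series. They were chosen by their titles. The 4 lines each had a library with the letter A and one with the letter B, and the letter entered the model as a block. The study sought a gene signature in exosomes, small vesicles that cells release, for residual disease in dogs with osteosarcoma. Its other 12 samples were exosome libraries, from these lines and from OSCA-32.

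Osteosarcoma is a malignant bone tumour whose cells lay down osteoid, the unmineralised bone matrix. It is common in large dogs and resembles the human tumour, so dogs with the disease serve as a model of it. Its genome is highly rearranged, and lines grown from such tumours are known to carry different sets of gains and losses, which makes the contrast between lines a question of its own.

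The labels give the 8 cell samples as total RNA of the named lines and list no treatment, genotype, donor or passage. Their protocols name an exosome precipitation reagent, a kit for exosome RNA and a stranded low-input library kit for all samples, cells included. Each line stands for itself: nothing in the labels says that letters A and B were separate cultures, and the p-values given here speak of the spread among these libraries, part or all of which may be technical. In bulk RNA a smaller share of cells that express a gene and less of its RNA per cell cannot be told apart. Genes are given by Ensembl identifier because none of the 24579 identifiers could be paired with a name. Bone, matrix, cell cycle and other cell type markers could therefore not be read, and the labelled identity of the lines was not checked against them.

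Libraries were of similar depth. Cell totals ran from 7728553 to 13301840 counts, with 11219873 and 12715916 in OS-2 A and B. A count of 0 stood for at most 0.226 to 0.388 CPM, a read count scaled by the total of its library, with 3 counts as the limit and counting error alone. Between 14704 and 16273 genes had a count, 15210 and 14757 of them in OS-2 A and B.

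The OS-2 libraries resembled each other more than any other library, and the libraries of the other lines did not follow their labels as closely. Spearman's correlation of log2 CPM over the 14148 tested genes was 0.968 between OS-2 A and OS-2 B. Genes are not independent replicates, so these correlations describe the libraries only. OS-2 libraries correlated with those of another line at 0.813 to 0.876 within a letter and at 0.79 to 0.859 across letters. Libraries of 2 other lines correlated at 0.897 to 0.974 within a letter and at 0.854 to 0.936 across letters. Every pair that joined OS-2 to another line with the same letter thus lay below every such pair without OS-2.

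OS-1 A and OSCA-8 A went against their labels. They correlated with each other at 0.974, the highest of all 28 pairs, while OS-1 A correlated with OS-1 B at 0.891 and OSCA-8 A with OSCA-8 B at 0.911. OS-1 B was nearest to OSCA-8 B at 0.906, and OSCA-8 B was nearest to OS-1 A at 0.921. OSCA-78 A was nearest to OS-1 A at 0.947, just above its own replicate at 0.942. The cause was not tested, and results are given below without OS-1 A and OSCA-8 A as well.

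**Figure D1:**
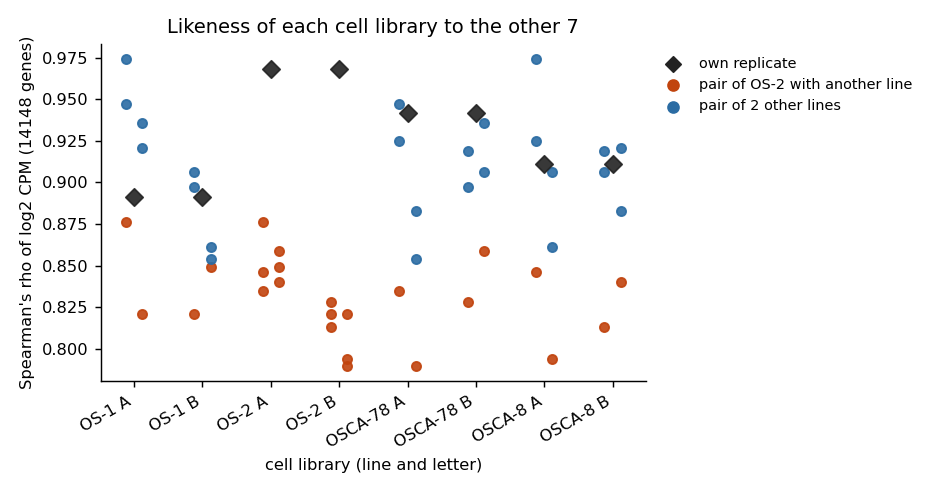
Spearman's correlation of log2 CPM over 14148 genes (vertical axis) of each cell library (horizontal axis) with the other 7 cell libraries. Black diamonds are the own replicate, orange points pairs of OS-2 with another line and blue points pairs of 2 other lines. The OS-2 diamonds stand alone at 0.968 above the other points of their columns, whereas OS-1 A and OSCA-8 A share a blue point at 0.974 above their diamonds.

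The first question was how many genes set OS-2 cells apart. Compared with the 3 other lines on average, 1476 genes were higher in OS-2 cells and 1623 were lower, or 10.4% and 11.5% of the 14148 genes tested (edgeR's quasi-likelihood test with the letter block, Benjamini-Hochberg adjusted p under 0.05). As tested, the lower genes had the larger fitted changes, a point that depends on scarce genes. Among the higher genes the median log2 fold change was 1.58 (quartiles 1.10 and 2.57), and 532 exceeded a fold of 4 and 182 a fold of 16. Among the lower genes the median was -3.94 (quartiles -1.61 and -5.98), and 1107 exceeded a fold of 4 and 802 a fold of 16. The median over all tested genes was -0.03.

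Much of the size of the losses rested on genes near 0 in OS-2. Of the lower genes, 678 entered the test through the other lines alone, since they reached the filter's limit of 0.860 CPM in no OS-2 library, and 80 of the higher genes reached it in OS-2 alone. Without them the medians were 1.51 over 1396 higher genes and -1.86 over 945 lower genes, with 109 and 191 past a fold of 16. With a filter on the mean count instead (at least 100), 1142 genes were higher and 1065 lower, which turns the balance of the counts. OS-2 had no count of 237 of the lower genes and at most 3 counts over both libraries of 415. With a line at 0 set to its limit of 3 counts, the median of the lower genes was -3.67 and that of the higher genes 1.51. Of the higher genes, 72 had another line at 0 and 4 had no count in any of the other 3 lines.

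Single libraries moved these counts. Without OS-2 A, 548 genes were higher and 702 lower, and without OS-2 B 353 and 457. They were 908 and 1026 without OSCA-78 A, 944 and 979 without OSCA-78 B, 1065 and 1060 without OSCA-8 A, and 895 and 942 without OSCA-8 B. Without both OS-1 A and OSCA-8 A, 1037 were higher and 915 lower. Without the letter block the counts were 979 and 1007. No gene called in OS-2 was called in the opposite direction under any of these settings. With only 1 OS-2 line, what belongs to OS-2 and what belongs to any single line picked out of 4 cannot be told apart by these tests.

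The contrast with OS-2 was repeated in each pair of lines. These pairs share the OS-2 libraries and are not independent of each other. Against OS-1 cells, 628 genes were higher in OS-2 and 983 lower (11.4% of the genes tested). Against OSCA-78 these counts were 879 and 1275 (15.2%), and against OSCA-8 they were 808 and 1386 (15.5%). The pairs without OS-2 gave few calls. OS-1 had 5 genes higher and 0 lower than OSCA-78 (0.0353%). OSCA-78 had 1 gene higher and 5 lower than OSCA-8 (0.0424%). Between OS-1 and OSCA-8 the count was 0 by edgeR (0%), where an unadjusted p under 0.05 was reached by 811 genes. DESeq2 called 51 genes in that pair and limma 0.

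The tools differed in how many genes they called between the lines other than OS-2. DESeq2 called 455 genes between OS-1 and OSCA-78 and 645 between OSCA-78 and OSCA-8, and limma called 1 and 29. For the pairs with OS-2, DESeq2 called 3295 to 3987 genes and limma 1901 to 2786, so that with each tool every pair with OS-2 had more calls than any pair without it. The spread of fitted differences showed the same order without a threshold. The SD of the log2 fold change over all tested genes was 2.16 to 2.39 in the pairs with OS-2 and 1.0 to 1.20 in those without. OS-1 A and OSCA-8 A, which went against their labels, enter the pairs without OS-2, and their calls and SDs depend on it. Between single B libraries, the SD of the difference in log2 CPM was 1.97 to 2.10 with OS-2 and 1.22 to 1.48 without. The gap was thus narrower there. Leaving out any 1 library lowered the smallest count of a pair with OS-2 from 1611 to between 221 (without OSCA-8 B) and 966 (without OS-1 A), while the largest count of a pair without OS-2 lay between 0 and 23.

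**Figure D2:**
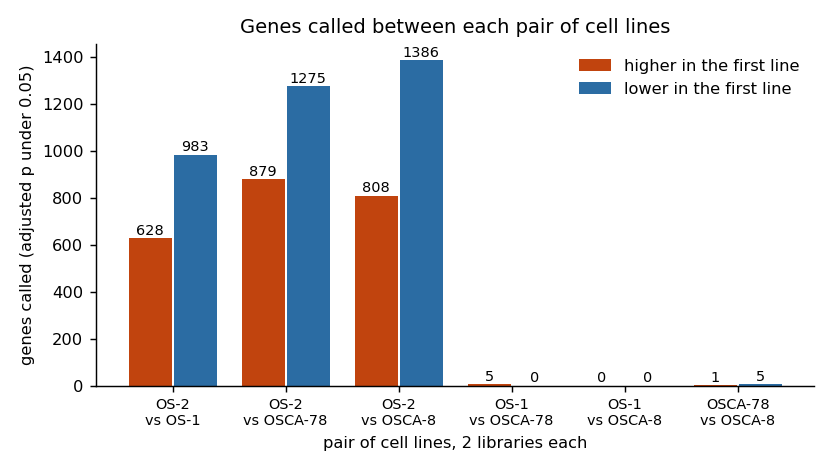
Number of genes called between each pair of cell lines (edgeR with the letter block, adjusted p under 0.05), with 2 libraries per line. Orange bars are genes higher in the first line named and blue bars genes lower in it; the 3 pairs with OS-2 have 628 to 1386 calls in each direction and the 3 pairs without it at most 5.

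Many of the genes that set OS-2 apart did so against every other line. OS-2 cells passed the test against each of the 3 lines as higher for 390 genes (2.76%) and as lower for 738 genes (5.22%). All 390 and all 738 were also called against the mean. Of the 1476 higher genes, 351 passed against none of the lines alone, 453 against 1 and 282 against 2. Of the 1623 lower genes, 109 passed against none, 385 against 1 and 391 against 2. The genes lower than each line had a median of -5.36 (-4.88 with lines at 0 set to their limit), and those higher than each line 2.35 (2.33). Of the 738 genes, 226 had at most 3 counts over both OS-2 libraries. For all 1623 lower genes, leaving out those that entered the test through the other lines alone moved the median from -3.94 to -1.86. No such median is given for the 738, so -5.36 is not a measure of the typical loss.

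Among the 3 lines, the one nearest to OS-2 differed from gene to gene. For the 390 higher genes the smallest difference was to OS-1 in 131, to OSCA-78 in 137 and to OSCA-8 in 122. For the 738 lower genes it was to OS-1 in 363, to OSCA-78 in 211 and to OSCA-8 in 164. These counts of genes past every pair depended on single libraries, all 8 of them. The higher and lower counts were 236 and 421 without OS-1 A, 138 and 373 without OS-1 B, 192 and 442 without OS-2 A, and 88 and 216 without OS-2 B. They were 101 and 318 without OSCA-78 A, 114 and 316 without OSCA-78 B, 84 and 260 without OSCA-8 A, and 37 and 166 without OSCA-8 B. Without OS-1 A and OSCA-8 A together they were 85 and 148.

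Higher and lower genes sat at different levels of abundance. Tested genes were divided into 5 groups of equal size by mean CPM over the 8 libraries. This mean includes OS-2, which raises it for higher genes and lowers it for lower genes. Part of the pattern below thus follows from how the groups were made. In the scarcest group (0.267 to 4.07 CPM), 136 genes were higher in OS-2 and 329 lower, or 4.81% and 11.6% of the group. In the next group (4.07 to 15.8 CPM) they were 247 and 475, or 8.73% and 16.8%. In the middle group (15.8 to 36.5 CPM) they were about equal, at 326 and 318. In the fourth group (36.5 to 83.1 CPM) they were 383 and 259, and in the most abundant group 384 and 242, or 13.6% and 8.55%.

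The size of the differences fell with abundance in both directions. The median log2 fold change of the higher genes was 4.21 in the scarcest group and 1.27 in the most abundant, and that of the lower genes was -6.51 and -1.39. Scarce genes need a larger fold to pass the test. The filter on low values acted as well. Of the genes tested, 1646 reached its limit of 0.860 CPM in no OS-2 library and 110 in no library of the other lines. Such genes entered the test through the group where they were high, and the 678 lower and 80 higher genes given above were among them.

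In shares of the RNA counted, the gains weighed more than the losses. OS-2 A had 20.2% of its counts in the 1476 higher genes and OS-2 B 26.2%. They took 7.26% to 8.80% in the 6 libraries of the other lines. The mean was 23.2 ± 4.26% in OS-2 (SD, n = 2), against 8.14 ± 0.934% in OS-1, 7.87 ± 0.866% in OSCA-78 and 7.76 ± 0.673% in OSCA-8. The 1623 lower genes took 3.38% and 2.32% of OS-2 A and B. In the other libraries they took 11.5% to 15.4%, with means of 11.9 ± 0.574% in OS-1, 12.8 ± 0.489% in OSCA-78 and 14.5 ± 1.32% in OSCA-8. These shares describe the lists, since the same libraries chose the genes.

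Few genes carried much of this. Of the summed gain of 15.3 percentage points, 108 of the higher genes made 50%, and the largest single gain was 0.943 points. Of the summed loss of 10.2 points, 42 of the lower genes made 50%, and the largest single loss was 1.46 points. The genes that passed against every line took 7.40% and 11.0% of OS-2 A and B when higher, against 1.60% to 2.13% of the other libraries. When lower, they took 0.491% and 0.325% of OS-2 A and B, against 3.34% to 4.65%.

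Genes chosen in the libraries of one letter could be read in those of the other, but the filter and scaling used all 8 libraries. Of the genes tested, 1646 reached the filter's limit in no OS-2 library and 110 in no library of the other lines. For these, the direction in the second letter was partly built in. Within letter A, OS-2 A was compared with the mean of the other 3 A libraries, and within letter B likewise, in log2 CPM with a prior count of 2. No library is shared between the letters. Over the 14148 tested genes these differences correlated at a Pearson's r of 0.81 (Spearman's rho 0.73) for OS-2. The same measure, each other line against the mean of the remaining 3, gave 0.25 for OS-1, 0.57 for OSCA-78 and 0.53 for OSCA-8. For these lines the remaining 3 include OS-2, so part of the OS-2 difference enters both letters. The likeness of OS-1 A to OSCA-8 A bears on the values of OS-1 and OSCA-8 too. The 4 values are thus not fully alike. These correlations are across genes and are given as descriptions.

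Genes chosen in one letter mostly kept their direction in the other, which the shared filter partly builds in for genes low in one group. Over all tested genes the median difference was -0.04 in letter A and -0.05 in letter B. The share of all genes on either side is not given here, nor are such counts for another line. In letter A, 653 genes were over 2 log2 units higher in OS-2. In letter B, 606 of them were above 0 and 553 above 1, and their median fell from 2.79 to 2.55. On the other side, 1657 genes were over 2 log2 units lower in letter A. In letter B, 1604 of them were below 0 and 1477 below -1, with a median of -3.23 after -3.40 in the choosing letter. Chosen in letter B, 755 of 825 higher genes were above 0 in letter A (median 2.05) and 1661 of 1734 lower genes were below 0 (median -3.06).

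Differences were wider in letter B in every line. Over all tested genes the SD of the OS-2 difference was 1.63 in letter A and 1.87 in letter B. In the same order it was 0.66 and 1.30 for OS-1, 1.06 and 1.16 for OSCA-78 and 0.90 and 1.23 for OSCA-8. The genes lower than each line stood at a median of -3.96 in letter A and -4.44 in letter B. By comparison, the letters themselves differed in 5 genes over all lines (0.0353%, edgeR), with 2703 at an unadjusted p under 0.05, 1413 called by DESeq2 and 41 by limma.

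**Figure D3:**
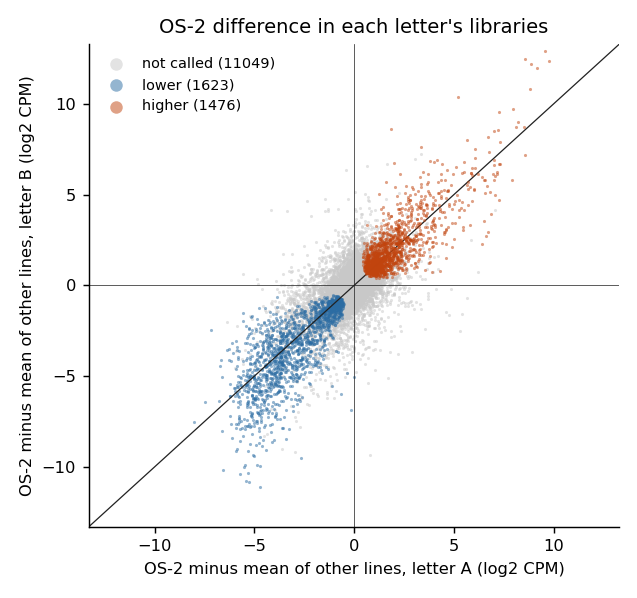
Difference of OS-2 from the mean of the other 3 lines in log2 CPM for each of 14148 tested genes, in the letter A libraries (horizontal axis) and the letter B libraries (vertical axis). Orange points are the 1476 genes called higher, blue points the 1623 called lower and grey points those not called; the line marks equal differences, and called genes of both directions lie along it, with Pearson's r of 0.81 over all genes.

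Genes that were off in OS-2 in one letter were also low in OS-2 in the other. A gene was taken as on at 10 CPM or more and as off at 3 counts or fewer. In letter B, 106 genes were off in OS-2 and on in the other 3 lines. In the A libraries these 106 genes summed to 186 CPM in OS-2 A, where 86 of them had more than 3 counts, and to 6501 CPM in OS-1 A, 8462 CPM in OSCA-78 A and 6954 CPM in OSCA-8 A. The OS-2 A level was thus 2.19% to 2.86% of that of the other lines. Chosen the other way, 32 genes off in OS-2 A summed to 3.22 CPM in OS-2 B, with 4 of them over 3 counts, which was 0.436% to 1.12% of the other B libraries.

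Genes on in OS-2 alone were fewer, but the rules for the 2 kinds were not alike. A gene on in OS-2 alone had to be off in every other library of the letter. A gene off in OS-2 alone had to be off only in OS-2. The numbers of genes thus do not weigh gains against losses, and counts by letter are not given for another line. Of those chosen in letter B there were 18, at 1007 CPM in OS-2 A and at 8.67, 1.25 and 5.56 CPM in OS-1 A, OSCA-78 A and OSCA-8 A, or 0.861%, 0.124% and 0.552% of OS-2 A. Of those chosen in letter A there were 12, at 445 CPM in OS-2 B and at 23.2, 3.01 and 2.29 CPM in OS-1 B, OSCA-78 B and OSCA-8 B. Over all 8 libraries, 3 genes were on in OS-2 and off in all other lines, and 7 were off in OS-2 and on in all others. In OS-1 and OSCA-8 there were 0 of either kind, and in OSCA-78 there was 1 gene off and 0 on. The cause of the low levels in the second letter was not tested.

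Among identifiers past every pair, 4 are given with their values, 2 higher and 2 lower. Each gene was ranked by its smallest fold over the 3 pairs, with the largest such fold first. In each direction, the first in this order was taken. The first among genes with at least 10 counts in each of the 8 libraries was taken as well. They are thus extreme genes of these same data, and their folds and adjusted p values come after that choice. ENSCAFG00000007539 was an abundant transcript in OS-2 cells and a scarce one elsewhere. It stood at 1017 CPM in OS-2 A and 1779 CPM in OS-2 B. In the 6 other libraries it lay between 11.7 and 35.8 CPM, with a median of 25.8, so that the groups were far apart. The ratio of normalised counts was 49.2 against OS-1, 58.9 against OSCA-78 and 54.9 against OSCA-8. The log2 fold change against the mean of the lines was 5.80 (SE 0.49, adjusted p = 0.00227, edgeR's quasi-likelihood test), and it was called under every alternative that gave a test.

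ENSCAFG00000032716 was close to private to OS-2 cells, but its level differed widely between the 2 OS-2 libraries. It stood at 6.15 CPM in OS-2 A (69 counts) and 272 CPM in OS-2 B (3454 counts). Of the other 6 libraries, OSCA-78 B had 2 counts and the other 5 had 0. The identifier thus reached the filter's limit of 0.860 CPM in OS-2 alone. It entered the test through the group where it was high, and its fold and adjusted p rest on that. OS-2 cells were at least 906-fold higher than OS-1 and at least 1187-fold higher than OSCA-8, taking 3 counts per line as the limit. These limits rest on OS-2 B. Within letter A, with 3 counts per library as the limit, OS-2 was at least 22-fold higher than OS-1, 24.7-fold than OSCA-78 and 27.3-fold than OSCA-8, and within letter B at least 700-fold higher than OS-1 and 987-fold than OSCA-8. Against the 2 counts of OSCA-78 the ratio was 1840 (95% counting interval 508.9 to 15200). The fitted log2 fold change was 12.69 without the letter block (SE 1.77, adjusted p = 0.0156, edgeR). The other lines were near 0, so the block can take up the gap between the OS-2 libraries, which its SE then does not measure. With the block, the fitted log2 fold change was 12.43 (SE 0.41, adjusted p = 0.00154, edgeR), a value that depends on the prior count. Without OS-2 B it was 9.74 with an edgeR adjusted p of 0.0636, which did not pass 0.05.

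ENSCAFG00000006164 was abundant in every line but OS-2. It stood at 14.9 CPM in OS-2 A and 1.18 CPM in OS-2 B, so here too the OS-2 libraries differed. In the other 6 libraries it ran from 488.5 to 1151 CPM, with a median of 668. OS-1 was 85.7-fold, OSCA-78 91.1-fold and OSCA-8 103.5-fold higher than OS-2 in normalised counts. The log2 fold change was -6.40 (SE 1.29, adjusted p = 0.0225, edgeR). Its size depended on the OS-2 library, at -9.59 without OS-2 A (adjusted p = 0.00513, edgeR) and -5.05 without OS-2 B (0.0145). The call did not pass without OSCA-78 A (adjusted p = 0.0547), without OSCA-78 B (0.0527) or without OS-1 A and OSCA-8 A (0.0644), each by edgeR, with fitted changes of -6.70, -6.38 and -7.60. Nor did it pass without the filter on low counts (0.0508) or without OS-1 and OSCA-8 A (0.084).

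ENSCAFG00000000059 had no count in either OS-2 library, and its level elsewhere depended on the letter. The identifier thus reached the filter's limit of 0.860 CPM in the other lines alone. It entered the test through them, and its fold and adjusted p rest on that. In the B libraries it stood at 80.9 CPM in OS-1, 91.3 CPM in OSCA-78 and 230.8 CPM in OSCA-8. In the A libraries it stood at 3.73, 0.664 and 0.301 CPM in the same order. OS-2 was at least 287-fold lower than OS-1, at least 380.1-fold lower than OSCA-78 and at least 830.5-fold lower than OSCA-8, and most of that rests on letter B. Within letter A, with 3 counts per library as the limit, the lower bounds were 13.9-fold, 2.48-fold and 1.12-fold in the same order, so OS-2 A and OSCA-8 A were hardly apart. The fitted log2 fold change was -12.74 (SE 2.44, adjusted p = 0.027, edgeR) and depends on the prior count. Adjusted p was 0.169 without the letter block, 0.0656 without OS-2 A, 0.381 without OS-2 B, 0.0721 without OSCA-78 A and 0.076 without OSCA-78 B. It was 0.0728 without the filter on low counts and 0.0614 without the line OSCA-78, so the call rests on these choices and libraries. The fitted change lay between -12.46 and -13.68 in 6 of these 7 fits and was -6.84 without OS-2 B.

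**Figure D4:**
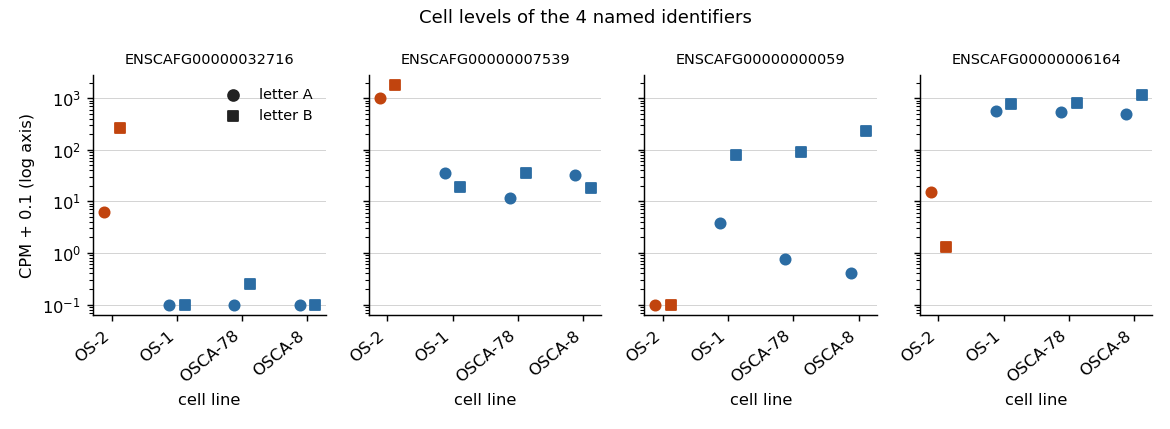
Level of the 4 identifiers in each cell library, as CPM plus 0.1 on a log axis, by cell line; circles are letter A, squares letter B, and OS-2 is orange. OS-2 lies outside the range of the other 3 lines in each panel, but for ENSCAFG00000000059 OSCA-8 A (0.301 CPM) is near the limit that 0 counts in OS-2 A allows (0.267 CPM). ENSCAFG00000032716 differs between the OS-2 letters (6.15 and 272 CPM), and ENSCAFG00000000059 is low in letter A of every line.

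Exosome libraries of the same lines had no part in choosing these genes and allowed the cell difference to be looked up in the RNA that the lines release. They were shallower, at 259078 to 481487 counts, so a count of 0 allowed up to 6.23 to 11.6 CPM in a library. In a fit of the 12 exosome libraries, 15083 genes were tested in OS-2 against the mean of OS-1, OSCA-78 and OSCA-8. Of these, 1837 were higher in OS-2 exosomes (12.2%) and 732 lower (4.85%). The balance depended on the scaling, and with total counts 517 were higher and 10114 lower. Without OS-2 exosome replicate 1 the counts were 1203 and 286, and without replicate 2 they were 1172 and 215. Of the 11591 genes tested in both fractions, 49.9% were higher in OS-2 exosomes and the median log2 difference was 0.00. Of the 1279 genes higher in OS-2 cells, 947 or 74.0% were above 0 in exosomes, with a median of 0.67. Of the 1426 genes lower in OS-2 cells, 300 or 21.0% were above 0, with a median of -0.63.

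Calls in the same direction were a minority. In exosomes, 408 of the cell-higher genes were called higher and 11 lower, and 142 of the cell-lower genes were called lower and 38 higher. Of all genes tested in both fractions, 15.8% were called higher and 3.76% lower. The 408 genes were 31.9% of the cell list and 22.3% of the exosome list, and the 142 were 9.96% and 32.6%. Without OS-2 exosome replicate 1 the shared calls were 283 and 57, and without replicate 2 they were 270 and 46. With total counts they were 131 and 1228. The genes past every pair in cells were further from the rest. Of 359 such higher genes 77.4% were above 0 (median 0.79), and of 656 such lower genes 12.2% (median -0.80).

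In exosomes, genes abundant in cells were more often above 0 in OS-2 than scarce ones, so the lists were read within the 5 groups of cell abundance. In the scarcest group 18.6% of all genes were above 0 in OS-2 exosomes, against 34.1% of cell-higher and 10.5% of cell-lower genes. In the middle group these shares were 44.6%, 67.6% and 15.7%. In the most abundant group they were 78.9%, 89.7% and 44.8%. The cell-higher genes thus lay above and the cell-lower genes below all genes of these groups. The signs depended on the scaling. With total counts, the median over all genes was -1.60, that of the cell-higher genes -0.93 (309 of 1279 above 0) and that of the cell-lower genes -2.22.

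A ratio within a library needs no scaling. The counts of the 390 genes higher than each line were divided by those of the 738 genes lower than each line. In cells, which chose the genes, this was 15.1 in OS-2 A, 34.0 in OS-2 B and 0.358 to 0.615 in the other 6 libraries. In exosomes it was 1.90 in OS-2 replicate 1 (95% binomial interval 1.83 to 1.97, counting error only) and 2.46 in replicate 2 (2.37 to 2.57). In the other 10 exosome libraries it ran from 0.466 to 0.509, with a median of 0.483. The groups did not overlap. By share of the library, the lower set lay apart in OS-2 exosomes and the higher set did not. The lower genes took 0.985% and 0.716% of the OS-2 exosome counts and 3.45% to 4.95% of the other 10. The higher genes took 1.87% and 1.77% in OS-2, within the 1.67% to 2.40% of the others. Genes not called in cells were apart in OS-2 exosomes as well. Those of the scarcest of the 5 abundance groups took 1.44% to 1.79% of OS-2 counts and 5.56% to 8.78% of the others. Those of the most abundant group took 52.0% to 57.0% and 18.1% to 34.9%. A low share was thus not particular to the lower set, which had 119 and 281 of its 738 genes in the 2 scarcest groups. By the ratio, OSCA-32, a line with no cell library here, stood at 0.466 and 0.479, among the other lines.

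By line, the exosome ratio was 2.18 ± 0.400 in OS-2 (SD, n = 2), 0.487 ± 0.0132 in OS-1 (n = 4), 0.473 ± 0.00863 in OSCA-32, 0.506 ± 0.00481 in OSCA-78 and 0.478 ± 0.00700 in OSCA-8 (n = 2 each). OS-2 had the highest of the 5 line means. An exact two-sided permutation test of 1 line against 4 gave p = 0.2. This is the smallest p that the design allows, so the test adds nothing to the ranking. None of the 7 genes above 1% of an exosome library was in either set. Without its most abundant gene the ratio was 1.66 and 2.03. In the 5 groups of abundance the OS-2 values were 0.131 and 0.198 against 0.0803 to 0.114 in the scarcest, 1.13 and 1.27 against 0.433 to 0.538 in the middle, and 5.73 and 7.65 against 0.957 to 1.35 in the most abundant. The OS-2 ratios lay above all others within these groups too, and the shares of the higher and lower sets behind them were not separated by group.

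**Figure D5:**
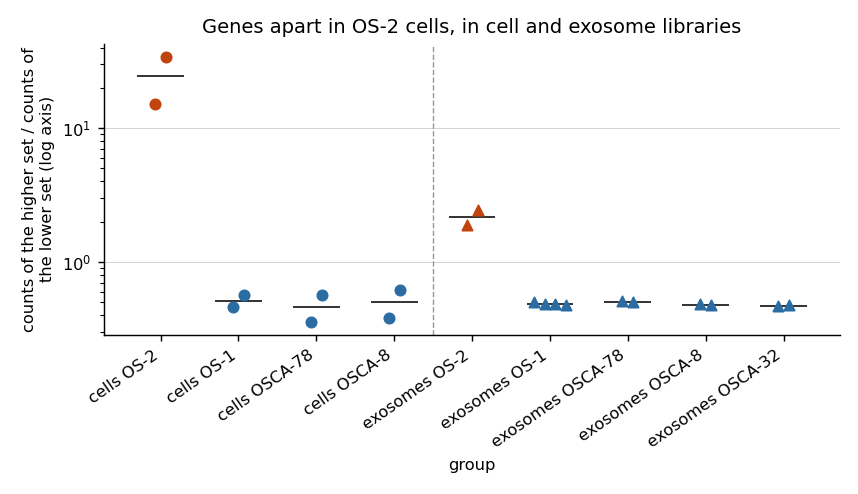
Counts of the 390 genes higher than each line in OS-2 cells divided by counts of the 738 genes lower than each line (vertical log axis), by group; circles are cell libraries, triangles exosome libraries, and horizontal bars group means. OS-2 lies above the other lines in both fractions, at 15.1 and 34.0 in cells and 1.90 and 2.46 in exosomes, where the other 10 libraries lie between 0.466 and 0.509. In exosomes the share of the higher set in OS-2 (1.87% and 1.77%) lies within the range of the others.

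For many genes called in cells, the fitted OS-2 difference was smaller in exosomes. Their choice in cells and the depth of the exosome libraries partly build this in. In a fit of 18 libraries of both fractions, the OS-2 difference in exosomes was not the same as that in cells for 2197 of 16211 genes (13.6%, edgeR's interaction test, adjusted p under 0.05), higher in exosomes for 9.75% of genes and lower for 3.81%. Of 1394 cell-higher genes in this fit, 353 had a lower difference in exosomes and 62 a higher one. Of 1525 cell-lower genes, 604 had a difference that was less negative or positive in exosomes and 0 the reverse. The cell libraries that chose these genes also enter this test, so these counts describe the lists. A count of 0 in an exosome library allowed up to 6.23 to 11.6 CPM. A difference more negative than that in cells could hardly be seen for scarce genes. That 0 genes went the reverse way says little for this reason. The count was 902 without OS-2 B cells, 1102 and 1173 without exosome replicates 1 and 2, and 4135 with total counts.

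The 4 identifiers varied in this respect. ENSCAFG00000032716, nearly private to OS-2 cells, had 0 counts in both OS-2 exosome libraries, while the other 10 had 14.6 to 53.5 CPM, with a median of 22.0. Its exosome log2 difference from the mean of 3 lines was -6.32 (adjusted p = 0.0181, edgeR), opposite in sign to that in cells and dependent on the prior count. ENSCAFG00000007539 stood at 33.2 and 8.82 CPM in OS-2 exosomes and at 7.32 to 36.8 CPM in the others, so that its levels in CPM overlapped (log2 difference 1.72 on the TMM scale, adjusted p = 0.0415, edgeR). ENSCAFG00000006164 stood at 18.7 and 22.1 CPM in OS-2 exosomes, below the 39.0 to 133 CPM of the others. Its exosome log2 difference from the mean of 3 lines was -0.54 (SE 0.47, adjusted p = 0.47, edgeR), a value on the TMM scale and not in CPM. ENSCAFG00000000059 stood at 4.15 and 8.82 CPM in OS-2 exosomes and at 7.67 to 73.2 CPM in the others (log2 difference -0.09, SE 0.74, adjusted p = 0.949, edgeR).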

How the data were processed

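The authors deposited raw counts, as whole numbers, for 24579 dog gene identifiers in 1 table. Per the submitters' processing notes, the tools were kallisto 0.43.0, Trimmomatic 0.33.0 and FastQC 0.11.5. The notes list GRCm38.p5 beside CanFam3.1, while the table's name refers to Subread. Which made the counts, and their strand setting, is not given in the sources used here. Overlapping or near-identical genes may therefore have uncertain counts. There was 1 column that matched no sample, and it was not used.

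The main test was edgeR's quasi-likelihood test (edgeR 4.0.16, limma 3.58.1, R 4.3.3) on the 8 cell libraries with a coefficient per line and the letter as a block, TMM scaling, robust dispersions, a filterByExpr minimum count of 10 and Benjamini-Hochberg adjustment at 0.05 over all genes tested. Exosomes were fitted in 12 libraries, and both fractions in 18. The letters come from the sample titles, and the block was set before the fit. A minus B differences correlated between lines at 0.174 to 0.482 in all 6 pairs. The pairs with OS-2 had 0.174 to 0.214, and OS-1 with OSCA-8 had the highest value. SEs of the cell fit were worked back from the fold change and its F statistic. Replicates differed beyond counting error (chi-square per degree of freedom 73.4 to 138). Named identifiers needed an adjusted p under 0.05 against the mean and each line, OS-2 outside the range of the others and a mean log2 CPM of at least 3 (350 higher and 477 lower). Gene lists and markers could not be matched to identifiers (0 of 24579) and were not tested. Members, lists and rules were chosen with earlier results of these data known. Levels for on and off, the abundance groups and the ratio within a library were chosen after seeing the data.

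On simulated counts, 200 genes were changed in OS-2 cells. The main test recovered 0% of them at a fold of 2 (13872 genes), 58% at 4 (13895 genes) and 85.5% at 16 (13900 genes). False calls were 0, 17 and 11. Each gene had 1 mean over the 8 libraries, with no letter effect and no difference between the other lines. Far fewer genes were changed than the 3099 called in the data, which makes the adjustment stricter, so these rates need not hold there. In the data, 1196 of 1476 higher and 1483 of 1623 lower genes exceeded a fold of 2, and the rest were called below it. Alternatives were other scalings and filters, thinning, DESeq2 1.42.0, limma voom, no block, pooled lines, and leaving out libraries or lines. Where a line kept 1 library, that library was taken to vary like the others.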

Additional observations from a re-analysis of the deposited data

Results flagged for a closer look

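For 3 of the 4 identifiers, the OS-2 difference in exosomes was not the same as that in cells by edgeR's interaction test over both fractions, with Benjamini-Hochberg adjustment over all genes. The log2 difference in exosomes minus that in cells was -21.36 for ENSCAFG00000032716 (SE 3.33, adjusted p = 0.00219), a fitted value that depends on the prior count because several groups are at 0. It was -4.26 for ENSCAFG00000007539 (SE 0.73, adjusted p = 0.00108) and 5.74 for ENSCAFG00000006164 (SE 1.08, adjusted p = 0.00234). The cause was not tested. All 3 were chosen for a large difference in the cell libraries that also enter this test.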

How the results depend on the processing

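Counts are given as higher then lower. Without the replicate block they were 979 and 1007 against the mean of the lines, 171 and 385 against each line, and 775 in the lowest pair with OS-2, so the block raised the calls. DESeq2 gave 2653 genes lower than the mean, 759 and 1320 against each line, 3295 in the lowest pair with OS-2, 645 in the highest pair without it and 1413 between letters. The stricter filter (mean count of 100, which tests fewer genes) gave 1142 and 1065 against the mean, 456 lower than each line and 2 between letters. No filter gave 32 in the highest pair without OS-2 and 24 between letters, limma 29 and 41, thinning 10 between letters, and upper quartile and total count scaling 3 each. Upper quartile scaling gave 1247 and 1819 against the mean.

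Leaving out 1 library gave 353 to 1478 and 457 to 1636 against the mean, 37 to 236 and 166 to 442 against each line, 221 to 966 in the lowest pair with OS-2, 0 to 23 in the highest without it and 0 to 30 between letters. Without the line OS-1 the values were 650 and 1114 against each line, 2565 in the lowest pair with OS-2 and 10 in the highest without it. Without OSCA-78 they were 863 higher than the mean, 918 and 0, and without OSCA-8 911 and 928 against the mean, 420 lower than each line, 820 and 0. Without OS-1 A and OSCA-8 A, added after seeing the data, they were 915 lower than the mean, 85 and 148 against each line, 443, 0 and 0 between letters. The cause of these shifts was not tested, apart from fewer libraries or genes.

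Shared exosome calls, 550 in all (408 higher, 142 lower), were 1359 with total counts (131 and 1228, where 10114 genes were lower in OS-2 exosomes) and 316 to 340 without an OS-2 exosome library. Unequal exosome and cell differences, 2197 in all, were 4135 with total counts and 902 to 1685 without an OS-2 library. The depth of exosomes limits single genes there.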
